A study of Homo sapiens with 12 samples.

Results

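Of the 26481 genes counted, 7 were examined: the 6 interleukin receptor genes that stand side by side on chromosome 2q12 (IL1R2, IL1R1, IL1RL2, IL1RL1, IL18R1 and IL18RAP) and IL18, the ligand of the last pair, on chromosome 11. They were picked by gene name because IL18RAP was much higher in cells that regrew after decitabine-containing chemotherapy than in untreated cells, and the question was whether its neighbours shared that difference. The values of IL18RAP are therefore given without a test. Of the 7 genes, 5 passed the filter on low counts and entered the fit with all 14164 genes that did, and IL1RL2 and IL1R2 did not pass.

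HEL is an established human erythroleukemia line, here carrying lineage barcodes. Untreated cells (NT, n = 2) were kept in 0.1 µM DMSO. The other cultures were relapses: cells were exposed for 72 to 74 h to 1.8 µM doxorubicin (Doxo, n = 3), to doxorubicin with 6 µM cytarabine (Doxo+Cyta, n = 3), or to both plus decitabine at 0.1 µM (Doxo+Cyta+DAC, n = 4). Decitabine blocks the enzymes that methylate DNA. Live cells were then isolated and grown for about 30 days until the starting number was reached. The series text speaks of 3 untreated replicates, and 2 libraries carry that label. Replicates are described as biological, but nothing ties a library to a culture or a date, so the p-values measure the spread between these libraries. No sequencing or extraction batch is labelled. No library is from cells given decitabine alone, and "with decitabine" below means the Doxo+Cyta+DAC group. Its differences from NT join all the drugs and the regrowth, and only Doxo+Cyta differs from it by decitabine alone among the drugs. Each relapse grew from the cells that survived and was measured in bulk, so fewer cells that express a gene and less of its RNA per cell cannot be told apart.

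The signalling receptors of this family share a cytoplasmic TIR domain, which passes the signal through MYD88 and the IRAK kinases to NF-kB. Interleukin 18 binds IL18R1, and the accessory chain IL18RAP joins to give the complex that signals, so a cell needs both chains to respond. IL1RL1 (ST2) is the receptor of interleukin 33 and, like IL1R1 and IL1RL2, pairs with a different accessory chain, IL1RAP, whose gene is on another chromosome. IL1R2 is a decoy that binds interleukin 1 without signalling. In blood, the IL-18 receptor is best known from T and NK cells and ST2 from mast cells, basophils and type 2 lymphocytes.

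The 6 receptor genes lie in the order IL1R2, IL1R1, IL1RL2, IL1RL1, IL18R1, IL18RAP, all on the plus strand, within 460721 bases of GRCh38 (chromosome 2, 101991844 to 102452564). IL1RL1 (102311502 to 102352037) ends 4245 bases before IL18R1 (102356283 to 102398775), which ends 20014 bases before IL18RAP (102418790 to 102452564). IL1RL2 (102186973 to 102239351) is 72150 bases to the left of IL1RL1, and IL1R1 (102070376 to 102179874) and IL1R2 (101991844 to 102028422) complete the run. IL18 is on the minus strand of chromosome 11 (112143251 to 112164117). In the annotation of the count table, none of the 7 genes shared exon bases with another gene. The microRNA gene MIR4772 lies within IL18RAP and held at most 1 count.

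The start regions of the 3 neighbours at the IL18RAP end are shown because decitabine acts on methylation at CG dinucleotides and these windows differ in how many they hold. Each is 300 bases of RefSeq sequence on GRCh38.p14, plus strand, from 250 bases before to 50 bases after the annotated start nearest to the gene start in the count table, and capitals mark each CG. The windows are chr2:102418399-102418698 for IL18RAP, chr2:102356033-102356332 for IL18R1 and chr2:102311313-102311612 for IL1RL1.
IL18RAP: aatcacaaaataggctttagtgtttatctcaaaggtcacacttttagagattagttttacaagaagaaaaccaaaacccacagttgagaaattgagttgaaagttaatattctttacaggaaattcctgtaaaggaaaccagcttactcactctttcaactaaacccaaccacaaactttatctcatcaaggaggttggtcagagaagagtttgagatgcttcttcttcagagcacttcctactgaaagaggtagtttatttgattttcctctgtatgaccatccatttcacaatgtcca
IL18R1: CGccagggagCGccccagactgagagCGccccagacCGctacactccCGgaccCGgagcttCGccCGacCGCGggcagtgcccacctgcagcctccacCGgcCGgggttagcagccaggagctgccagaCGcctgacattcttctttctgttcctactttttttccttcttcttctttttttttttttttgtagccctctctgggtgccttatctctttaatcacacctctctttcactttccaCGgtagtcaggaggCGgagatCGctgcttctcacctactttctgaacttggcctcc
IL1RL1: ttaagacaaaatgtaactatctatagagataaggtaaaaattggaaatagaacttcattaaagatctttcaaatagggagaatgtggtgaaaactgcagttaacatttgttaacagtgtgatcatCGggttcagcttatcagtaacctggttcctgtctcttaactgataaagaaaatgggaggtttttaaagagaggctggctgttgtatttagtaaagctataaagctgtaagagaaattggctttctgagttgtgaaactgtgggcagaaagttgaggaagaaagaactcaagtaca
The IL18RAP window held 0 CG, as did 3.96% of the 35116 windows in the reference table, where the median was 14. The IL18R1 window held 16, and 47.5% of all windows held as many or more. The IL1RL1 window held 1 CG, and 11% of windows held that few. The windows of IL1RL2, IL1R1 and IL1R2 held 5, 7 and 9, the one of IL1R1 being 34228 bases inside the counted gene. The number depends on the start: over all RefSeq starts it ran from 0 to 2 for IL18RAP, from 16 to 29 for IL18R1, from 5 to 16 for IL1RL2, from 4 to 40 for IL1R1 and from 1 to 9 for IL1R2, and was 1 at both starts of IL1RL1. These are counts of letters, and methylation was not measured in these libraries.

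IL18RAP, the accessory chain, was almost silent in untreated cells. Its counts were 0 and 1 in NT, 8, 4 and 5 in Doxo, 2, 4 and 3 in Doxo+Cyta, and 39, 54, 62 and 41 in Doxo+Cyta+DAC. As CPM (counts per 1000000 of the library, scaled by the TMM method), the levels were 0 and 0.0595 in NT, 0.558, 0.233 and 0.315 in Doxo, 0.124, 0.267 and 0.183 in Doxo+Cyta, and 2.39, 3.71, 3.25 and 3.25 in Doxo+Cyta+DAC. Every decitabine library was above all 8 others, as for 21.5% of all tested genes. All libraries of the relapse groups were above both NT libraries, which held 0 and 1 counts. The Doxo libraries were so for 24.6% of all tested genes, and this share was not counted for the other relapses. The mean in Doxo+Cyta+DAC was 3.15 ± 0.553 CPM (SD, n = 4), against 0.369 ± 0.169 (n = 3) in Doxo and 0.191 ± 0.0719 (n = 3) in Doxo+Cyta.

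Because NT held a single count, the size of the IL18RAP difference from NT is known only loosely. The pooled ratio of Doxo+Cyta+DAC to NT, from summed counts over summed scaled library sizes, was 113.5 with an exact 95% counting interval of 20.1 to 4507, which covers counting error only. Set against 3 counts in each NT library, 0.166 CPM on average, the Doxo+Cyta+DAC mean was 18.9 times higher. Between relapses the counts carry more. The pooled ratio was 8.73 (5.31 to 15.3) over Doxo and 16.5 (8.54 to 36.7) over Doxo+Cyta. The ratios to NT of the relapses without decitabine were 13.0 (2.04 to 544) for Doxo and 6.86 (0.951 to 301) for Doxo+Cyta, and their means were 2.22 and 1.15 times the level of 3 counts per NT library. IL18RAP entered the fit only through the decitabine libraries, so Doxo+Cyta and Doxo are likewise given without a test, as a pooled ratio of 0.527 (0.207 to 1.25).

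IL18R1, the ligand-binding chain and the nearest neighbour of IL18RAP, was also higher with decitabine, by a smaller factor and from a higher base. Its counts were 104 and 84 in NT, 69, 52 and 42 in Doxo, 67, 77 and 53 in Doxo+Cyta, and 267, 200, 208 and 189 in Doxo+Cyta+DAC. As CPM these were 5.35 and 5.00 in NT, 4.81, 3.03 and 2.65 in Doxo, 4.14, 5.13 and 3.24 in Doxo+Cyta, and 16.3, 13.7, 10.9 and 15.0 in Doxo+Cyta+DAC. The lowest decitabine library was thus above the highest of the 8 others, as it was for IL18RAP and for 21.5% of all tested genes.

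IL18R1 rose 2.70-fold in Doxo+Cyta+DAC relative to NT (95% interval 1.84 to 3.94, log2 fold change 1.43, SE 0.26, adjusted p = 0.000482). It was 4.01-fold higher than in Doxo (2.84 to 5.66, log2 2.00, SE 0.23, adjusted p = 7.8e-06) and 3.35-fold higher than in Doxo+Cyta (2.39 to 4.70, log2 1.75, SE 0.23, adjusted p = 1.78e-05). These 3 comparisons share the decitabine libraries and are not independent. A higher level at adjusted p under 0.05 was found for 24.9%, 29.1% and 29.8% of all tested genes in the same comparisons, and the log2 fold change of IL18R1 was reached or passed by 4.21%, 1.67% and 2.75% of them. Without decitabine no difference of this gene passed. Doxo differed from NT by a log2 fold change of -0.57 (SE 0.27, adjusted p = 0.184), Doxo+Cyta differed from NT by -0.31 (adjusted p = 0.545), and the difference between these relapses was 0.26 (adjusted p = 0.602). The 3 Doxo libraries were all below both NT libraries, although the first of them, at 4.81 CPM, was close to the lower NT value of 5.00. The share of all tested genes that separated so was not counted. With the first Doxo library, replicate 4, left out, the difference from NT was -0.89 and passed the test (adjusted p = 0.0288). In the other 9 of 10 alternatives it did not pass, with adjusted p = 0.391 without Doxo replicate 5 and 0.432 without Doxo replicate 6.

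**Figure D1:**
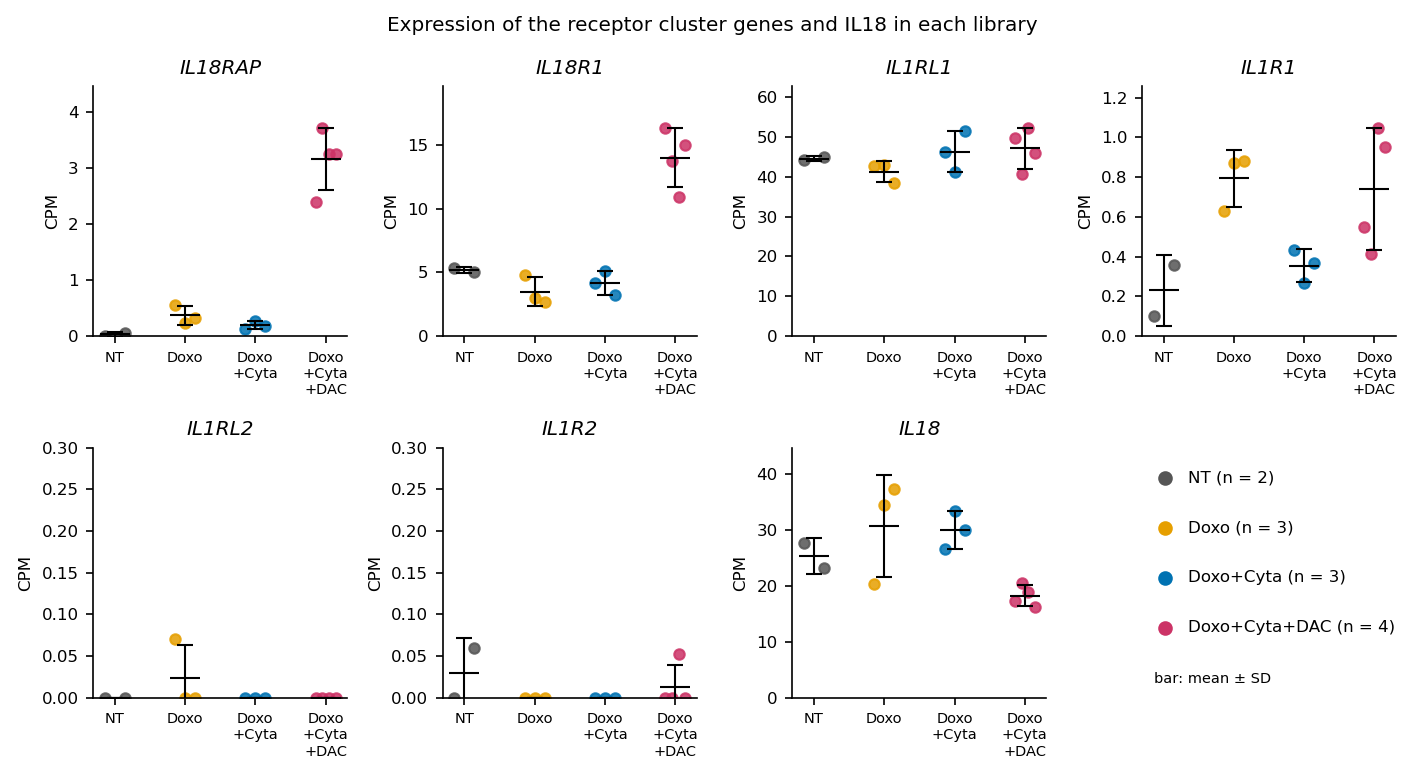
CPM (TMM-scaled, on linear axes that start at 0 and differ between panels) of the 6 receptor genes and IL18 in each of the 12 libraries, coloured by group, with the mean and SD as bars. The 4 Doxo+Cyta+DAC points stand above all others for IL18RAP (2.39 to 3.71 CPM) and IL18R1 (10.9 to 16.3 CPM), whereas the groups of IL1RL1 lie between 38.3 and 52.3 CPM, and IL1RL2 and IL1R2 have at most 1 count in any library.

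IL1RL1, the interleukin 33 receptor that lies 4245 bases before IL18R1, showed no difference of that size. This was the most highly expressed receptor of the cluster. Its levels were 44.1 and 45.0 CPM in NT, 42.6, 42.9 and 38.3 in Doxo, 46.1, 41.3 and 51.4 in Doxo+Cyta, and 49.6, 40.6, 52.3 and 45.8 in Doxo+Cyta+DAC, from 579 to 997 counts per library. The decitabine libraries overlapped those of every other group. The log2 fold change of Doxo+Cyta+DAC was 0.08 from NT (95% interval -0.20 to 0.36, adjusted p = 0.636), 0.19 from Doxo (-0.06 to 0.44, adjusted p = 0.170) and 0.03 from Doxo+Cyta (-0.22 to 0.27, adjusted p = 0.858). With upper-quartile scaling, the first and the last of these turned to -0.0035 and -0.06. The upper ends of the intervals, 0.36, 0.44 and 0.27, lie below the lower ends for IL18R1. The gene count adds the long transmembrane form of ST2 and the short soluble form, so a shift between them would not be seen.

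Taken within each library, the ratio of IL18R1 to IL1RL1, in CPM per kb of exon, is free of any scaling between libraries. It was 0.163 and 0.149 in NT, 0.152, 0.0948 and 0.0931 in Doxo, 0.121, 0.167 and 0.0847 in Doxo+Cyta, and 0.443, 0.455, 0.281 and 0.439 in Doxo+Cyta+DAC. All 4 decitabine ratios were above the other 8, the highest of which was 0.167. The mean log2 ratio was higher in Doxo+Cyta+DAC by 1.85 than in Doxo, by 1.73 than in Doxo+Cyta and by 1.35 than in NT. In two-sided exact permutation tests over libraries, p was 0.0286 against Doxo and against Doxo+Cyta and 0.0667 against NT, each the smallest value that these group sizes allow. Adjusted over the 6 comparisons of this ratio the p-values were 0.0857, 0.0857 and 0.133, so none passed, and the ratio was chosen after the values of both genes had been seen. The 2 genes of the IL-18 receptor also differed in proportion. The ratio of IL18RAP to IL18R1 per kb was 0 and 0.0166 in NT, 0.161, 0.107 and 0.166 in Doxo, 0.0416, 0.0723 and 0.0788 in Doxo+Cyta, and 0.203, 0.376, 0.415 and 0.302 in Doxo+Cyta+DAC. The accessory chain thus remained below the binding chain in all 12 libraries, and came nearest to it with decitabine. IL18RAP was picked for its rise in Doxo+Cyta+DAC over NT, so this ratio is a description. In NT it rests on 0 and 1 counts of IL18RAP.

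**Figure D2:**
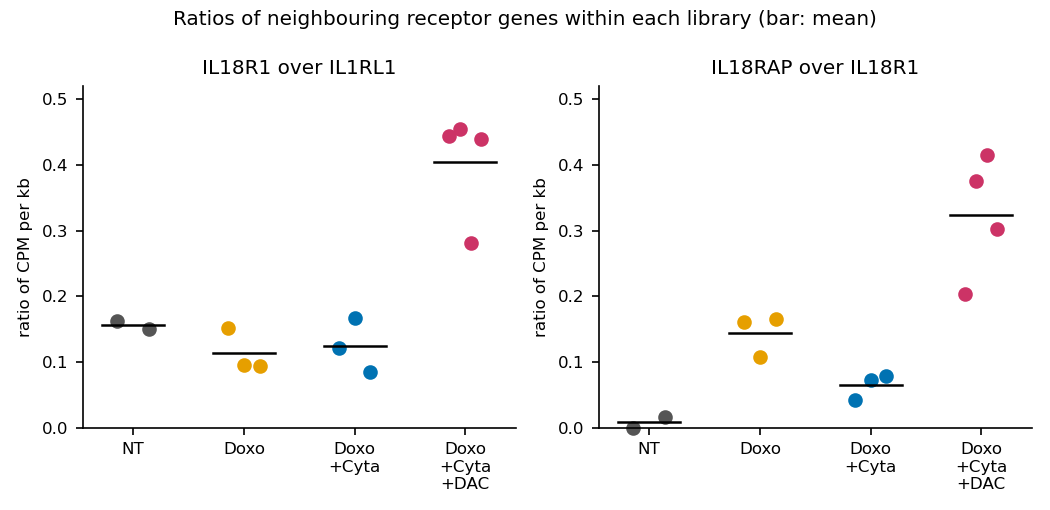
Ratios of CPM per kb of exon within each library, for IL18R1 over IL1RL1 (left) and IL18RAP over IL18R1 (right), as 1 point per library with the group mean as a bar, on linear axes. The Doxo+Cyta+DAC libraries have the 4 highest values in both panels, from 0.281 to 0.455 on the left and from 0.203 to 0.415 on the right. The right panel is a description, since IL18RAP was picked for its rise in these libraries over NT.

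IL1R1, the signalling receptor of interleukin 1, was close to the detection limit and followed another order of groups. It held 2 and 6 counts in NT, 9, 15 and 14 in Doxo, 7, 4 and 6 in Doxo+Cyta, and 9, 6, 20 and 12 in Doxo+Cyta+DAC. In CPM the values were 0.103 and 0.357 in NT, 0.628, 0.873 and 0.883 in Doxo, 0.433, 0.267 and 0.366 in Doxo+Cyta, and 0.551, 0.412, 1.05 and 0.950 in Doxo+Cyta+DAC. Doxo and Doxo+Cyta+DAC overlapped each other, and both were above the 2 NT libraries without overlap. The Doxo libraries were so for 24.6% of all tested genes, and this share was not counted for Doxo+Cyta+DAC over NT. IL1R1 passed the filter through the Doxo and Doxo+Cyta+DAC libraries, the groups where it was highest. Its tests are therefore given as a description and not as support for a shared rise. It rose in Doxo+Cyta+DAC relative to NT (log2 fold change 1.71, SE 0.56, adjusted p = 0.0206), a call that was lost without NT replicate 1 (1.04, adjusted p = 0.247) or without Doxo+Cyta+DAC replicate 32 (1.46, adjusted p = 0.0558). The value for Doxo over NT was 1.81 (SE 0.57, adjusted p = 0.0578). Doxo+Cyta+DAC differed from Doxo by -0.10 (adjusted p = 0.846), from which no direction can be read, and from Doxo+Cyta by 1.05 (adjusted p = 0.0599). The remaining values were 0.66 for Doxo+Cyta over NT (adjusted p = 0.600) and -1.15 for Doxo+Cyta over Doxo (adjusted p = 0.209).

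The other 2 receptor genes were not detectable at this depth. IL1RL2, the receptor of the interleukin 36 ligands, had 1 count in 1 Doxo library and 0 in the other 11. IL1R2, the decoy receptor, had 1 count in NT replicate 2, 1 in Doxo+Cyta+DAC replicate 32 and 0 elsewhere. A level of 3 counts corresponds to between 0.154 and 0.237 CPM in these libraries, and no fold change is given where both groups are at or below it.

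IL18, the ligand, had the highest level of the 7 genes per kb of exon, although IL1RL1 had more CPM, and was lower with decitabine than in the other relapses. Its levels were 27.6 and 23.1 CPM in NT, 20.4, 34.5 and 37.3 in Doxo, 26.6, 33.4 and 30.1 in Doxo+Cyta, and 17.3, 20.6, 18.9 and 16.2 in Doxo+Cyta+DAC, from 205 to 593 counts per library. The decitabine libraries were below all NT and Doxo+Cyta libraries, and 1 of them, at 20.6, was above the lowest Doxo library, at 20.4. How many of all tested genes separated in this way was not counted. IL18 fell in Doxo+Cyta+DAC relative to both other relapses, with a log2 fold change of -0.75 against Doxo (SE 0.18, adjusted p = 0.00272) and of -0.72 against Doxo+Cyta (SE 0.18, adjusted p = 0.00361). Lower levels at this threshold were found for 30.4% and 30.5% of all tested genes, and 19.2% and 21.2% had a log2 fold change as low as that of IL18. Relative to NT the value was -0.47 (95% interval -0.91 to -0.04, adjusted p = 0.0682) and did not pass. It passed under upper-quartile scaling, without the filter on low counts and in a fit of those 2 groups alone (adjusted p = 0.0306, 0.0433 and 0.00826). In the other 8 of 11 alternatives it did not pass, among them RLE scaling and DESeq2 (adjusted p = 0.0624 and 0.0647). Without decitabine IL18 gave 0.28 for Doxo over NT (adjusted p = 0.423) and 0.24 for Doxo+Cyta over NT (adjusted p = 0.566).

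**Figure D3:**
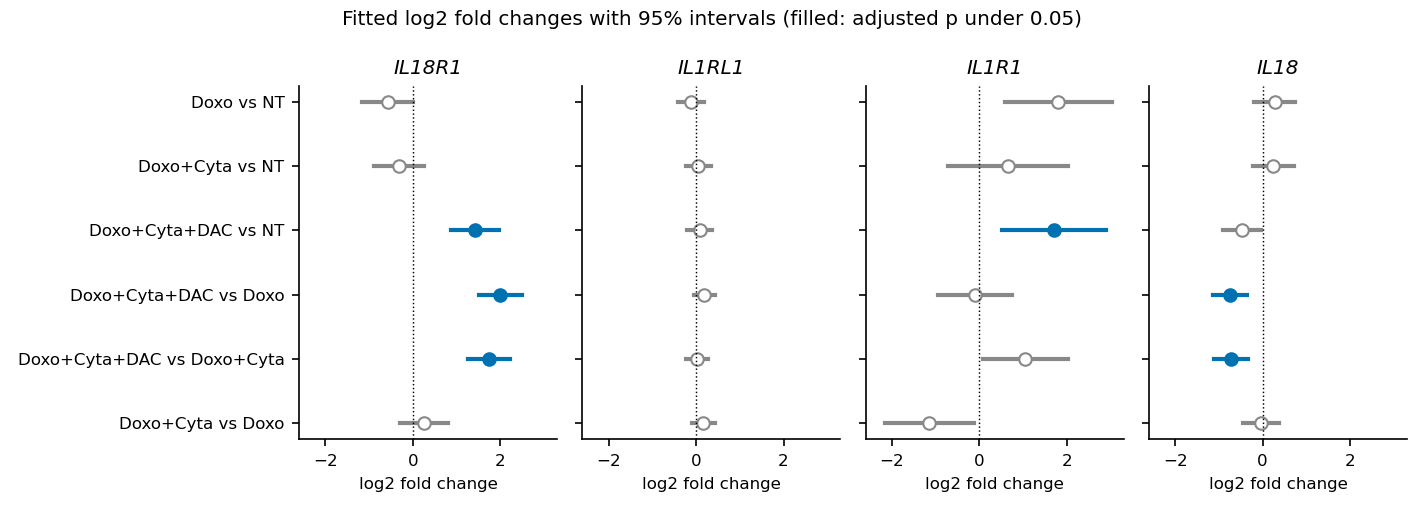
Log2 fold changes (first group minus second) of IL18R1, IL1RL1, IL1R1 and IL18 in the 6 comparisons, with 95% intervals from edgeR. The IL1R1 values are a description, since that gene passed the filter through the groups where it was highest. Filled blue points passed at adjusted p under 0.05: IL18R1 in the 3 comparisons with Doxo+Cyta+DAC (1.43, 2.00 and 1.75), IL1R1 in Doxo+Cyta+DAC vs NT (1.71) and IL18 in Doxo+Cyta+DAC vs Doxo and vs Doxo+Cyta (-0.75 and -0.72), whereas all intervals of IL1RL1 include 0.

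Of the 4 tested genes other than IL18RAP, 2 were called in each comparison with Doxo+Cyta+DAC: IL18R1 and IL1R1, both higher, against NT, and IL18R1, higher, and IL18, lower, against Doxo and against Doxo+Cyta. The IL1R1 call is a description, since that gene passed the filter through the groups where it was highest. The background was high, since 48.7%, 59.5% and 60.3% of all tested genes were called in those comparisons. A count of 2 of 4 is close to that share. In the comparisons without decitabine edgeR called 0 of the 4, where the background was 10.7% for Doxo vs NT, 1.46% for Doxo+Cyta vs NT and 3.4% for Doxo+Cyta vs Doxo. DESeq2 also called 0 in each, and 1, 0 and 1 of the 4 had an unadjusted p under 0.05.

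Compared per kb of exon, the genes kept the order IL18, IL1RL1, IL18R1 in all groups, with no overlap between them. In NT the means were 22.1, 8.91 and 1.39 CPM per kb, and in Doxo+Cyta+DAC they were 15.9 ± 1.66, 9.42 ± 1.01 and 3.76 ± 0.622 (SD, n = 4). IL18RAP and IL1R1 came last of the 5 genes that passed the filter and overlapped in NT, Doxo and Doxo+Cyta, with group means from 0.0111 to 0.150. In Doxo+Cyta+DAC they separated, IL18RAP lying between 0.894 and 1.39 CPM per kb and IL1R1 between 0.0777 and 0.198. Even there IL18RAP was a low transcript: 77.5% of tested genes had a higher mean level per kb in Doxo+Cyta+DAC, against 99.8% in NT. For IL18R1 this share was 60.2% with decitabine and 76.7% in NT.

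In the comparisons with Doxo+Cyta+DAC, the tested genes around the cluster showed smaller differences than IL18R1, and several showed larger ones than IL1RL1. Counting MIR4772 inside the run, the table holds 15 other genes up to 1 Mb on either side of the 6 receptors, of which 9 were tested. Relative to NT, Doxo+Cyta+DAC was higher for 2 of the 9 and lower for 0, where 24.9% and 23.7% of all tested genes were, with a median log2 fold change of 0.24 (0.02 over all tested genes). The 2 were MAP4K4, a kinase gene (0.45, adjusted p = 0.0147), and MFSD9, a predicted transporter (0.50, adjusted p = 0.0322). TBC1D8 had the largest value over NT, 1.07, at low levels (1.04 against 0.491 CPM), and did not pass (adjusted p = 0.114). Relative to Doxo, 2 were higher and 1 lower (29.1% and 30.4% of all tested genes), and relative to Doxo+Cyta 4 were higher and 1 lower (29.8% and 30.5%). SLC9A2, a sodium-proton exchanger, had the largest increase of these, rising from 1.89 ± 0.395 CPM (n = 3) in Doxo to 4.17 ± 0.621 (n = 4) in Doxo+Cyta+DAC (log2 1.14, adjusted p = 0.0017), and by 0.98 over Doxo+Cyta (adjusted p = 0.00419). RPL31, a ribosomal protein gene at the far left, was lower by -0.64 and -0.66 (adjusted p = 0.000671 and 0.000499). The gene next to IL18RAP on the other side, SLC9A4, was near the detection limit, with group means from 0.428 to 0.576 CPM. In the comparisons without decitabine edgeR and DESeq2 called 0 of the 9, and 1, 1 and 0 had an unadjusted p under 0.05 for Doxo vs NT, Doxo+Cyta vs NT and Doxo+Cyta vs Doxo.

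**Figure D4:**
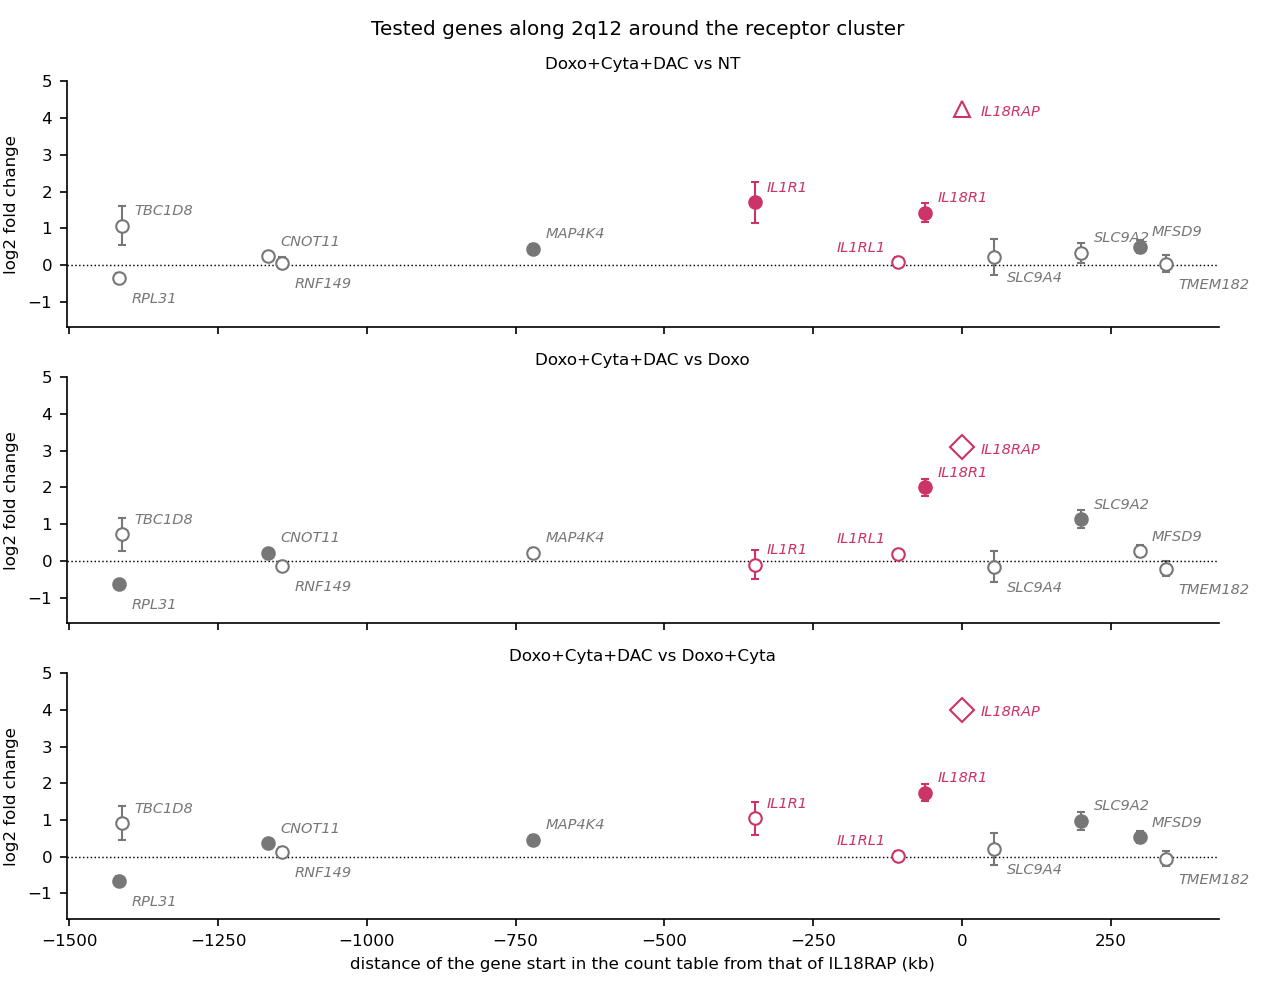
Log2 fold change of each tested gene around the cluster against the distance of its start from that of IL18RAP in kb, in the 3 comparisons with Doxo+Cyta+DAC, for members (pink) and other genes (grey), with SE bars, filled where adjusted p was under 0.05. IL18RAP is an open symbol without a test: the triangle is its mean over 3 counts per NT library (18.9-fold), the diamonds are fitted values, and next to it IL18R1 lies at 1.43, 2.00 and 1.75 whereas IL1RL1 stays at 0.08, 0.19 and 0.03.

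Among other ligands and antagonists of the family, 3 of 11 passed the filter. IL1B, which signals through IL1R1, was abundant. It fell from 322 ± 11.3 CPM (n = 2) in NT to 113 ± 36.3 (n = 4) in Doxo+Cyta+DAC, a log2 fold change of -1.51 (adjusted p = 0.000251). It was also lower than in Doxo by -0.90 (adjusted p = 0.00349) and than in Doxo+Cyta by -1.31 (adjusted p = 0.000198). IL18BP, the secreted inhibitor that binds interleukin 18, was lower than in NT (9.29 ± 0.895 against 13.7 ± 0.681 CPM, log2 -0.56, adjusted p = 0.0141). IL33, the ligand of IL1RL1, had 0 counts in every library. All 3 tested genes of this list, IL36G being the third, were lower in Doxo+Cyta+DAC than in NT, against 23.7% of all tested genes. IL36G was near the detection limit, with 0.555 ± 0.0574 CPM in NT and 0.146 ± 0.116 in Doxo+Cyta+DAC, below the level of 3 counts. It was highest in the relapses without decitabine (0.703 in Doxo and 1.02 in Doxo+Cyta), so its fall adds little to that count.

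Among the other receptors of the family, 2 of 4 were tested. IL1RAP, the accessory chain shared by the IL-1 receptors and ST2, had group means from 3.19 to 4.12 CPM and did not pass in any comparison. SIGIRR, which dampens TIR signalling, was lower with decitabine than in Doxo+Cyta (15.4 ± 2.26 against 25.2 ± 6.27 CPM, log2 -0.70, adjusted p = 0.00252).

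The 24 genes listed for signalling through MYD88 and the TIR domain were all tested. Relative to NT, 6 were higher and 5 lower in Doxo+Cyta+DAC, 11 of 24 where 48.7% of all genes were called. The median log2 fold change was -0.05 (0.02 over all tested genes). IRAK1, a kinase recruited by MYD88, rose from 92.4 ± 6.59 to 280 ± 57.8 CPM (adjusted p = 0.000573). CHUK, an IkB kinase, rose by 0.99 (adjusted p = 0.000103) and MAP3K7 (TAK1), the kinase above it, by 0.71 (adjusted p = 0.000227), whereas MAP3K8 was lower by -0.72 (adjusted p = 0.00868). MYD88 itself had 32.1 CPM in NT and 36.9 in Doxo+Cyta+DAC (log2 0.20, adjusted p = 0.392). Against Doxo 6 were higher and 10 lower, where 29.1% and 30.4% of all tested genes were, and against Doxo+Cyta 6 and 6, where 29.8% and 30.5% were.

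Of 16 inflammasome genes, which process the precursors of IL18 and IL1B, 11 were tested. Relative to NT, 3 were higher and 3 lower in Doxo+Cyta+DAC, with a median of -0.01, where 24.9% and 23.7% of all tested genes were called in these directions. In Doxo 4 were higher than in NT and 0 lower, where 6.06% and 4.63% of all tested genes were. The sensor NLRP3 was 6.03 ± 1.99 CPM in NT, 19.9 ± 5.58 in Doxo (log2 1.72, adjusted p = 0.0169) and 13.1 ± 2.86 in Doxo+Cyta+DAC (1.12, adjusted p = 0.0258). CASP4, an inflammatory caspase, rose over NT by 0.81 in Doxo (adjusted p = 0.00728) and by 0.72 after both cytotoxic drugs (adjusted p = 0.0403), and was lower in Doxo+Cyta+DAC than in Doxo (-0.82, adjusted p = 8.25e-05).

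Of 15 genes commonly induced by IL-1 or IL-18 through NF-kB, 10 were tested. In Doxo 3 were higher than in NT, where 6.06% of all tested genes were, CXCL8 by 4.29 (adjusted p = 0.000212), PTGS2 by 2.08 (adjusted p = 3.38e-05) and CXCL2 by 1.41 (adjusted p = 0.0428). In Doxo+Cyta+DAC, 3 were higher than in NT and 1 lower, against 24.9% and 23.7% of all tested genes. CXCL8, a neutrophil chemokine, was 7.36 ± 2.88 CPM there against 1.38 ± 0.0134 in NT (log2 2.41, adjusted p = 0.000388) and 27.0 ± 3.33 in Doxo. NFKBIZ, a regulator of NF-kB targets, fell from 124 ± 3.03 CPM in NT to 61.8 ± 23.1 in Doxo+Cyta+DAC (adjusted p = 0.00513). Against Doxo, 5 were lower and 0 higher, where 30.4% and 29.1% of all tested genes were. IFNG, the classical target of interleukin 18 in lymphocytes, had 0 counts in every library.

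Markers of the cells that usually carry these receptors were read beside them, and their counts called in Doxo+Cyta+DAC vs NT stand against 24.9% higher and 23.7% lower over all tested genes. The list of T and NK cell markers summed to 88.8 to 93.3 CPM in NT, 127 to 142 in Doxo, 109 to 154 in Doxo+Cyta and 101 to 137 in Doxo+Cyta+DAC, ranges that overlap between relapses with and without decitabine. The defining T cell genes CD3D, CD3E and CD3G reached at most 1, 2 and 1 counts in any library. Other genes of the list were expressed, and CD2, PRF1 and IL2RB had group means from 19.8 to 50.5 CPM. In Doxo+Cyta+DAC 1 of 8 tested markers was higher than in NT and 1 lower. The higher one, IL7R, rose from 1.91 ± 0.0803 CPM to 15.0 ± 2.50 (log2 2.97, adjusted p = 6.28e-06). Relative to Doxo, IL7R was higher and 2 genes, CD247 and CD2, were lower (29.1% and 30.4% of all tested genes). Relative to Doxo+Cyta, 1 was higher and 3 lower, CD247 and NKG7 among them (29.8% and 30.5%). The mast cell and basophil list summed to 1833 to 2023 CPM in Doxo+Cyta+DAC and 2472 to 3162 in the other 8 libraries. GATA2, an abundant gene of this list, had means of 1061 CPM in NT and 508 in Doxo+Cyta+DAC. Smaller differences between these groups were seen for KIT (243 and 178), HDC (695 and 656), FCER1A (484 and 448) and CPA3 (54.7 and 55.9). Relative to Doxo and to Doxo+Cyta, 6 and 9 of the 11 tested genes of the list were lower in Doxo+Cyta+DAC and 0 higher. Relative to NT, 5 of the 11 were lower and 0 higher. Among the 5 were MS4A2, a chain of the IgE receptor (18.6 to 6.49 CPM, log2 -1.52, adjusted p = 8.45e-05), and TPSAB1, a tryptase whose reads may be shared with TPSB2 (8.55 to 1.50 CPM, log2 -2.52, adjusted p = 6.94e-05). IL1RL1, a receptor gene of the same cells, had no difference that passed. The erythroid and megakaryocytic markers that define the line summed to 6623 to 9076 CPM in Doxo+Cyta+DAC and 8219 to 9434 in NT. In Doxo they summed to 9784 to 10467 and in Doxo+Cyta to 10301 to 11192. In Doxo+Cyta+DAC, 3 of the 13 tested were higher and 4 lower than in NT. Relative to Doxo 2 were higher and 7 lower, and relative to Doxo+Cyta 2 were higher and 9 lower. Over all tested genes, 30.4% and 30.5% were lower in these comparisons. The platelet gene PF4 was at 0 in 3 of the 4 groups. The monocyte and granulocyte list summed to 46.8 to 55.4 CPM in Doxo+Cyta+DAC, 50.7 to 53.6 in NT and 62.7 to 77.8 in the other relapses. ELANE and FCN1 had 0 counts in every library. Of the 5 tested genes of this list, 2 were lower in Doxo+Cyta+DAC than in NT and 0 higher. Relative to Doxo 4 of them were lower and 0 higher, and relative to Doxo+Cyta likewise 4 and 0. The endothelial and stromal list summed to 178 to 225 CPM, and 1 of its 5 tested genes was higher and 1 lower in Doxo+Cyta+DAC than in NT. Any part of these other programmes in the receptor values was not tested.

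The genes whose log2 CPM followed each member most closely over the 12 libraries were found among 13279 genes, and are given as a description. For IL18RAP and IL18R1 the 4 decitabine libraries stood above all others and so weigh heavily in the likeness. For IL18RAP they were MEX3D (Pearson r = 0.987), LSM12 (0.986) and TMEM14A (0.983). For IL18R1 they were SUPV3L1 (0.989), PPP5C (0.987) and CCT5 (0.986). None of these 6 lies on chromosome 2, and the 2 lists share no gene. IL18RAP and IL18R1 correlated with each other at 0.83 over 12 libraries and at -0.36 over the 8 without decitabine. For IL1RL1 the closest were ITGA9 (0.892), ZC3H12B (0.889) and SLC45A3 (0.810), for IL1R1 they were IDS (0.944), UHRF1BP1L (0.933) and ZFP28 (0.921), and for IL18 they were STX5 (0.983), SF3B2 (0.958) and NFU1 (0.954).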

How the data were processed

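RNA of HEL cells was sequenced as paired-end TruSeq libraries. The authors aligned the reads to GRCh38 with Bowtie2 2.2.8 and deposited fragment counts per gene from featureCounts 1.6.0, made without regard to strand and leaving out chimeric fragments. The submitters' processing notes also name FastQC, Subread and DESeq2. Bowtie2 does not split reads over exon junctions, which can lower the counts of genes with many short exons, and without strand a gene and an antisense partner cannot be told apart. The deposited counts are whole and not normalized. Of 26485 genes, 4 with a missing value were left out. Total counts per library lay between 12763582 and 19106235.

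Groups were taken from the sample labels. Counts were fitted in edgeR 4.0.16 (R 4.3.3) with filterByExpr, TMM scaling and 1 quasi-likelihood model over all 12 libraries. Tests were two-sided, Benjamini-Hochberg adjustment ran over the 14164 genes within each of 6 comparisons, and the calling threshold was an adjusted p of 0.05. CPM per kb uses the deposited exon length. Log2 CPM for correlations use a prior count of 2. The script was tested on simulated data. Ratios of few counts have exact conditional 95% intervals, and 3 counts per library served as the lowest level. Intervals and this level cover counting error only. Promoter windows are from RefSeq, where 6 of the 7 members matched by symbol and IL18 did not. Other steps used Python 3.11.15, pandas 2.3.3, scipy 1.17.1, numpy 2.4.6 and matplotlib 3.10.9.

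The members and the gene lists were chosen with earlier results of these data known. Named were all 7 members, in each list at most 4 called genes per comparison with the largest change and 1 CPM or more on average in whichever group was higher, the tested genes within 1 Mb, and the 3 genes closest to each member in Pearson r. IL36G, IL33, IFNG, MYD88, IL1RAP, the CD3 genes, PRF1, IL2RB, GATA2, KIT, HDC, FCER1A and the markers at 0 are named outside that rule, after their values were seen. Alternatives were RLE and upper-quartile scaling, no filter, only the groups compared, DESeq2 1.42.0, another lowest level and leaving out each library.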

Additional observations from a re-analysis of the deposited data

How the results depend on the processing

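Of 66 alternative values over the 6 comparisons, IL18R1 kept its direction and call in 65, IL1RL1 in 61 and IL18 in 59. IL1R1 did so in 57 of 64. For IL18RAP, given without a test, the fitted value moved in 6 of 63, those without an NT library. Upper-quartile scaling, which moved the median of all tested genes by at most -0.0888, turned IL1RL1 to -0.0035 (Doxo+Cyta+DAC vs NT) and -0.0621 (vs Doxo+Cyta) and IL18 to 0.0219 (Doxo+Cyta vs Doxo). Leaving out 1 library at a time gave 0 to 2 members called in Doxo vs NT, the 2 (IL18R1 and IL1R1) only without Doxo replicate 4, and 1 to 2 in Doxo+Cyta+DAC vs NT, with 1 only without NT replicate 1 or Doxo+Cyta+DAC replicate 32. The log2 fold changes that then changed sign, none past the test, ranged from -0.0417 to 0.11 for IL1RL1 (Doxo+Cyta vs NT), from -0.00465 to 1.72 for IL1R1 (Doxo+Cyta vs NT), from -0.34 to 0.0911 for IL1R1 (Doxo+Cyta+DAC vs Doxo), from -0.0527 to 0.0988 for IL1RL1 (Doxo+Cyta+DAC vs Doxo+Cyta), from -0.25 to 0.13 for IL18 (Doxo+Cyta vs Doxo). In each of these the cause was not tested. Without an NT library the remaining one is assumed to vary like the other groups. The fitted log2 fold change of IL18RAP over NT in Doxo+Cyta+DAC was 5.54 without NT replicate 1 and 8.66 without NT replicate 2, and against 3 counts over the pooled NT group, in place of 3 per library, its folds were 38.0, 4.46 (Doxo) and 2.31 (Doxo+Cyta). IL1R1 passed against Doxo+Cyta without Doxo+Cyta+DAC replicate 31 (1.24, adjusted p = 0.0284). No paired analysis was possible because the groups share no replicate numbers. Depth limits IL18RAP, IL1R1, IL1RL2 and IL1R2, whose counts in NT were at most 6.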
